A study of Mus musculus with 2 samples.

Results

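The DEAD and DEAH box helicases are enzymes that use ATP to unwind RNA or to strip proteins from it, and they take their family name from the amino acids of a conserved ATP-binding motif. Their genes were taken by name: every gene called Ddx or Dhx followed by a number in the annotation of the arrays, without Ddx58, Dhx58, Ddx60, Ddx41 and Ddx3y, 4 of which are sensors or interferon-induced genes and 1 of which lies on the Y chromosome. This gave 47 genes of 24203 with a gene ID on the arrays. The rule uses names and no intensity, although the names left out were chosen with earlier results of these data known. The 47 genes lie on 15 chromosomes and are read by 96 transcript rows, each of which sums up 3 probes. A gene with several rows is given by its brightest row, judged by the average of the 2 log2 values.

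Expression was measured on NimbleGen arrays with a single dye, Cy3. One array carried RNA of cia-cGAS knockout cells and the other RNA of cia-cGAS WT cells, which makes 1 array in each group. Both came from C57BL/6 mice aged 8 weeks, and both are labelled LT-HSC, the long-term haematopoietic stem cells of bone marrow, isolated on a cell sorter. The labels call cia-cGAS a circular RNA. The sources used here do not state how the deletion was made, how many mice were pooled or which markers were sorted on.

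Helicases of these families act at nearly every step in the life of an RNA. In the spliceosome each of several DEAH and DEAD box proteins drives a single rearrangement, from the first recognition of the intron to the release of the finished mRNA. In the nucleolus a larger set helps to fold and cut ribosomal RNA, and in the cytoplasm others open mRNA leaders for ribosomes or hold mRNAs for decay. A few members have also been described as binding foreign nucleic acid, which makes the family a neighbour of the sensors that were left out here.

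With 1 array in each group, no test between groups was possible, no p-value is given, and every difference describes these 2 samples. Values are log2 intensities, and differences are knockout minus wild type. Genes of smell and taste receptors, with 1025 rows, gave the detection floor of each array: their 95th percentile was 8.97 in the knockout and 9.11 in the wild type. A gene above the floor on 1 array alone has only a bound, which sets its value there against the floor where it was dim. Over the genes above both floors, the arrays correlated with r = 0.896 across genes, which are not independent replicates. The labelled cell type was met in part: of 12 LT-HSC marker genes, 7 were above the floor on the knockout array and 7 on the wild-type array, and Procr, Slamf1 and Fgd5 were among those below both floors.

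Most of the detected helicase genes differed little between the arrays. Of the 47 genes, 26 were above both floors (55.3%, against 38.2% of all genes), 1 was above the knockout floor alone (all genes, 4.14%), 6 were above the wild-type floor alone (all genes, 2.54%) and 14 were above neither (all genes, 55.2%). Among the 26, no gene reached 2-fold in the higher direction, which 5.37% of all genes above both floors did, and 1 reached it in the lower direction, which 4.19% did. That gene was Ddx42. At 1.5-fold, 0 of the 26 were higher (all genes, 11.4%) and 3 were lower, Ddx42, Ddx39 and Ddx18 (all genes, 12.5%), and 0 were lower by 3-fold (all genes, 0.779%). With bounds counted for the 33 genes above either floor, 0 passed 2-fold higher (all genes, 5.54%) and 2 passed 2-fold lower, Ddx42 and Ddx23 (all genes, 4.06%). The counts of 0 higher depend on the names left out. Ddx58, Dhx58 and Ddx60 fit the name pattern, were above both floors and differed by 3.89, 3.25 and 4.01, while the shares of all genes keep such genes. The difference was under 0.5 in size for 22 of the 26, a share of 84.6%, against 70.6% of all genes above both floors. Just inside the 2-fold threshold lay Ddx42 at -1.45 and just outside it Ddx39 at -0.94.

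The small differences lay more often below zero than above it. Of the 33 helicase genes above either floor, 24 had a lower value in the knockout, a share of 72.7%, against 51.6% of all genes above either floor. Of these 24, 6 were above the wild-type floor alone, which fixes a lower value in the knockout. Of the 26 above both floors, 18 had a lower value in the knockout, or 69.2%, against 53.6%, with a median of -0.17 against -0.04. The median difference of the 33, with those 6 among them, was -0.22, with quartiles at -0.46 and 0.00. The median over all genes above either floor was -0.02, with quartiles at -0.36 and 0.33. The share depends on which row stands for a gene. With the row of the median difference the count was 19 of 33, with a median of -0.16 against -0.0003 over all genes above either floor. With all rows averaged it was 16 of 28, with a median of -0.13 against 0.006. The share of all genes with a lower value is not given for these row choices. Counted by rows, 31 of 55 detected rows of these genes were lower in the knockout, or 56.4%, against 49.6% of all detected rows with a gene. The same 6 genes above the wild-type floor alone were 18.2% of the 33, against 5.67% of all genes above either floor. The reverse, a gene above the knockout floor alone, was seen for 1 of 33, or 3.03%, against 9.22%.

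Markers of the interferon response, of other marrow cells and of cell division were read on the same arrays and differed to unlike degrees. Summed intensities of 9 interferon-stimulated genes were 215347 in the knockout and 26088 in the wild type, with 9 above the floor in the knockout and 8 in the wild type, and their median difference was 4.54. For 10 DNA replication genes the sums were 36896 in the knockout and 52693 in the wild type, with 8 above the floor in the knockout and 10 in the wild type. Those of 9 B lineage genes were 3532 in the knockout and 19140 in the wild type, with 4 above the floor in the knockout and 6 in the wild type. For 10 erythroid genes the sums were 83411 in the knockout and 102664 in the wild type, with 7 above the floor in the knockout and 8 in the wild type. For 10 neutrophil genes they were 236721 in the knockout and 177267 in the wild type, with 9 above the floor on each array. For 10 monocyte genes they were 106868 in the knockout and 79214 in the wild type, with 10 above the floor in the knockout and 8 in the wild type. Sums follow the brightest genes, such as Pcna of the replication list, at 14.55 in the knockout and 14.38 in the wild type. Median differences were taken over the genes of each list above either floor, some of which passed on 1 array alone. They were -1.35 for replication, -2.62 for B lineage, -0.79 for erythroid, 0.32 for neutrophil and 0.53 for monocyte genes. Over genes above both floors they were -0.94, -2.47, -0.70, 0.32 and 0.44 in the same order. For all genes above either floor the quartiles were -0.36 and 0.33, and the neutrophil median lay between them. In the monocyte list 8 genes were higher and 2 lower in the knockout. Of the measured markers in these lists, 0 were at an intensity of 0 on either array. Their part in the helicase values was not tested, and in RNA from many cells fewer cells of a type and less RNA per cell cannot be told apart.

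**Figure D1:**
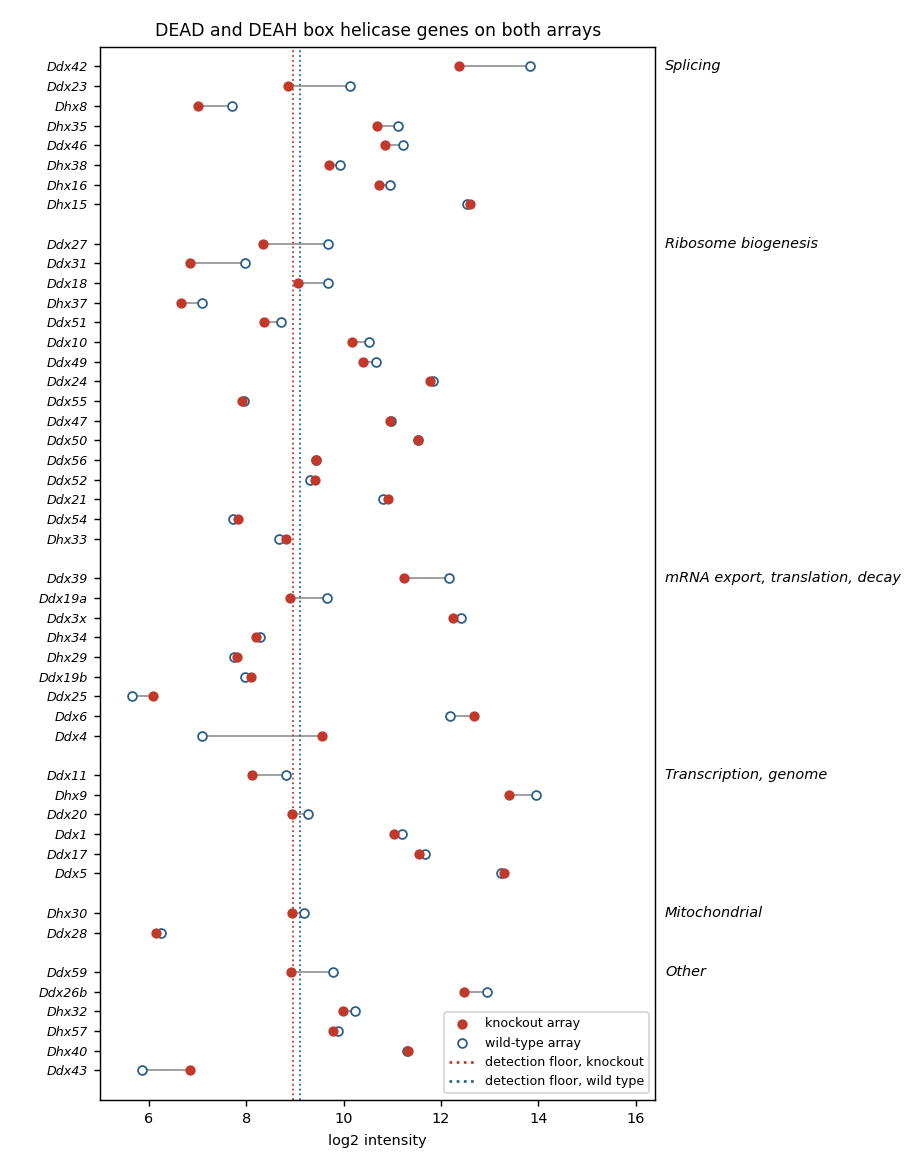
Log2 intensity (horizontal axis) of each of the 47 helicase genes on the knockout array (filled red circles) and the wild-type array (open blue circles), grouped by role and ordered by difference, with the detection floor of each array as a dotted line of its colour. The 26 genes with each circle to the right of the line of its own colour mostly have nearly coinciding circles. Ddx42 has the widest gap among them, and Ddx4 is the single gene whose knockout value alone passes the floor.

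The spliceosomal helicases held both genes that passed 2-fold. Of 8 on the arrays, 6 were above both floors, Ddx23 was above the wild-type floor alone and Dhx8 was above neither. The 7 detected ones had a median difference of -0.38, and 6 of the 7 were lower in the knockout, against 51.6% of all genes above either floor. Ddx23 is among the 7 only through its wild-type value, and the 6 above both floors had a median of -0.30.

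Ddx42 encodes a protein that associates with the SF3b part of the U2 snRNP, the particle that recognises the branch point of an intron. Its log2 intensity was 12.37 in the knockout and 13.82 in the wild type, a 2.73-fold lower level in the knockout (gene ID 72047; MM9, chromosome 11 from 106085406 to 106110251). A second row of Ddx42 read 12.52 in the knockout and 13.46 in the wild type, a difference of -0.94, so that both rows were lower and one of them fell short of 2-fold.

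Ddx23 encodes a helicase of the U5 snRNP, the counterpart of yeast Prp28, which helps U6 RNA to take the place of U1 RNA at the start of the intron. It read 8.87 in the knockout, below the floor, and 10.13 in the wild type, which bounds it at 2.25-fold lower in the knockout or more (gene ID 74351; MM9, chromosome 15 from 98478427 to 98493320). It has a single row, and no second measurement of it exists on the arrays.

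Ddx46, the counterpart of yeast Prp5, remodels the U2 snRNP at the branch point. It read 10.85 in the knockout and 11.23 in the wild type, and its second row differed by -0.81. Both of its rows thus lay below zero, at -0.38 and -0.81.

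By their brightest rows, Dhx16, Dhx38 and Dhx15, DEAH box helicases that act in order at the assembled spliceosome, differed by less than Ddx46. Dhx16, the counterpart of yeast Prp2, which readies the spliceosome for its first reaction, read 10.74 in the knockout and 10.96 in the wild type, and its second row differed by 0.00. Dhx38, the counterpart of Prp16, which acts between the reactions, read 9.70 in the knockout and 9.93 in the wild type. The 3 rows of Dhx38 were all lower in the knockout, with differences from -0.83 to -0.03.

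Dhx8, the counterpart of Prp22, which releases the spliced mRNA, was below both floors. Dhx15, the counterpart of Prp43, which takes the spent spliceosome apart, was nearly level at 12.60 in the knockout and 12.54 in the wild type. Its second row differed by 0.07. Dhx35, found in the catalytic spliceosome, read 10.69 in the knockout and 11.11 in the wild type. Ddx39b, whose protein UAP56 loads early splicing factors and export factors, is called Bat1a in the files and so is not among the 47. It read 11.88 in the knockout and 12.53 in the wild type, and its 3 rows differed by -0.94 to -0.21.

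**Figure D2:**
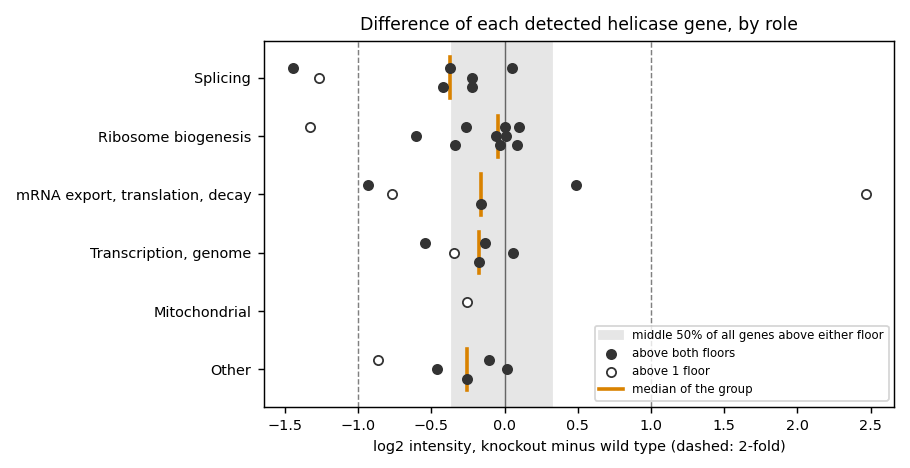
Difference in log2 intensity, knockout minus wild type (horizontal axis), of the 33 helicase genes above either floor, by role, with filled circles for genes above both floors, open circles for genes above 1 floor and an orange bar for the median of each group of more than 1 gene. The splicing group has a median of -0.38 and the ribosome biogenesis group one of -0.05, and the grey band marks the middle 50% of all genes above either floor, from -0.36 to 0.33.

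Helicases of ribosome biogenesis were close to level. Of 16 on the arrays, 9 were above both floors, Ddx27 was above the wild-type floor alone and 6 were above neither. The 10 detected ones had a median difference of -0.05, with 4 higher and 6 lower in the knockout, and none passed 2-fold.

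Ddx21, a nucleolar helicase of ribosomal RNA transcription and processing, read 10.91 in the knockout and 10.82 in the wild type. Its close relative Ddx50 read 11.52 in the knockout and 11.52 in the wild type, and another detected row differed by 0.06. Further nucleolar members were as close: Ddx24, Ddx47, Ddx52 and Ddx56 differed by -0.06, -0.03, 0.09 and 0.01. Ddx24 has 3 detected rows, and these ranged from -0.06 to 0.42.

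At the low end of the group, Ddx18 read 9.07 in the knockout, just above the floor, and 9.67 in the wild type, a difference of -0.61. Ddx10 read 10.17 in the knockout and 10.52 in the wild type, and Ddx49 read 10.39 in the knockout and 10.66 in the wild type. Ddx27, needed to form the 3′ end of precursor ribosomal RNA, read 8.35 in the knockout and 9.68 in the wild type, which puts it 1.64-fold lower or more in the knockout. Its other row was below both floors, so a single row measures it. Ddx31, Ddx51, Ddx54, Ddx55, Dhx33 and Dhx37 were below both floors, and no fold is given for them.

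Among the helicases of mRNA export, translation and decay, the members split in both directions. Of 9 genes on the arrays 3 were above both floors, Ddx19a was above the wild-type floor alone, Ddx4 was above the knockout floor alone and 4 were above neither. The median difference of the 5 detected genes was -0.16.

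Ddx39, named Ddx39a in newer annotation, is the paralog of Ddx39b and serves the export of mRNA. It read 11.23 in the knockout and 12.17 in the wild type, a 1.91-fold lower level in the knockout (gene ID 68278; MM9, chromosome 8 from 86239187 to 86247180). Its other row was below both floors. Ddx19a, which strips export factors from mRNA at the cytoplasmic face of the nuclear pore, read 8.90 in the knockout and 9.67 in the wild type, which puts it 1.63-fold lower or more in the knockout. Its paralog Ddx19b was below both floors, and near-identical pairs such as these can share hybridisation.

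Ddx6, which represses translation and promotes decay of mRNAs in P-bodies, had the largest positive difference of the 26 genes above both floors. It read 12.67 in the knockout and 12.19 in the wild type, a 1.40-fold higher level in the knockout. A second row of Ddx6 differed by 0.47 and the third by -0.13, so 2 of its 3 rows were higher. Ddx3x, which helps ribosomes through structured mRNA leaders, read 12.25 in the knockout and 12.41 in the wild type.

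Ddx4, the mouse counterpart of the germ cell helicase Vasa, was the one member that passed the floor in the knockout alone. It read 9.55 in the knockout and 7.09 in the wild type. Against the wild-type floor it was at least 1.36-fold higher in the knockout, a bound that does not reach 2-fold. The gene has a single row. The testis helicase Ddx25, which like Ddx4 is known from germ cells, was below both floors at 6.08 in the knockout and 5.65 in the wild type. Dhx29, a factor of translation initiation, and Dhx34, a factor of nonsense-mediated decay, were below both floors as well, over all 4 rows of Dhx29 and all 3 rows of Dhx34.

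Of the 6 helicases of transcription and genome upkeep, 4 were above both floors, Ddx20 was above the wild-type floor alone and Ddx11, a helicase of sister chromatid cohesion, was above neither. The median difference of the 5 detected genes was -0.17, and 0 passed 2-fold. Dhx9, also known as RNA helicase A, read 13.40 in the knockout and 13.94 in the wild type, but its second detected row differed by 0.04. Ddx5, a coregulator of transcription also known as p68, read 13.30 in the knockout and 13.23 in the wild type. The 4 rows of Ddx5 were all higher in the knockout, with differences from 0.06 to 0.83.

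Ddx17, the paralog of Ddx5 known as p72, read 11.55 in the knockout and 11.68 in the wild type from the row that stands for it. Its other detected rows differed by 0.65 and 0.31, so the sign for Ddx17 turned with the row. Ddx1, which takes part in transfer RNA ligation, read 11.03 in the knockout and 11.21 in the wild type. Ddx20, a partner of the SMN complex that assembles snRNPs, read 8.93 in the knockout and 9.28 in the wild type, a bound of at least 1.24-fold lower.

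The mitochondrial helicase gene Ddx28 was below both floors. Dhx30, which supports mitochondrial ribosomes, read 8.94 in the knockout and 9.20 in the wild type, at least 1.17-fold lower in the knockout. All 3 of its rows above the wild-type floor lay below the knockout floor, so each gives only a bound. Their lower sign is fixed by how they were detected. The remaining row of Dhx30 was below both floors, at 8.89 in the knockout and 8.70 in the wild type. Of the members in no role group, Ddx59, whose human counterpart is linked to a ciliopathy, read 8.91 in the knockout and 9.78 in the wild type, at least 1.75-fold lower in the knockout. Dhx32, Dhx40 and Dhx57 differed by -0.26, 0.02 and -0.10, and Ddx43, known as a cancer and testis antigen in humans, was below both floors.

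Ddx26b carries a family name but is called Ints6l in newer annotation, as a relative of subunit 6 of the Integrator complex, and is not known as a helicase. It read 12.47 in the knockout and 12.94 in the wild type from the row that stands for it, whereas its 3 other rows were higher in the knockout, by 0.21 to 0.33. Leaving it out changed no count of genes past 2-fold.

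Several rows of a gene give the closest thing to a repeat measurement here, although they share the RNA. Of the 12 helicase genes with at least 2 rows above both floors, every such row was lower in the knockout for 3 genes and higher for 3, and 6 had at least 1 row on each side of zero. For comparison, 31% of all genes with several such rows were lower in every row, 29.4% were higher in every row and 39.6% had both signs. The 3 genes lower in every row were Ddx42, Ddx46 and Dhx38, and the 3 higher in every row were Ddx5, Ddx50 and Dhx15. The rows of Ddx50 (0.0005 and 0.06) and Dhx15 (0.05 and 0.07) were nearly level, as was the highest row of Dhx38 at -0.03. By sign alone, splicing helicases stand in each set. Within a gene, the log2 differences of its rows had a pooled SD of 0.33 over the 12 helicase genes and of 0.37 over 2892 genes overall. Ddx42 was the 1 gene of the 12 with every such row at least 1.5-fold lower, which held for 4.67% of all genes with several such rows.

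**Figure D3:**
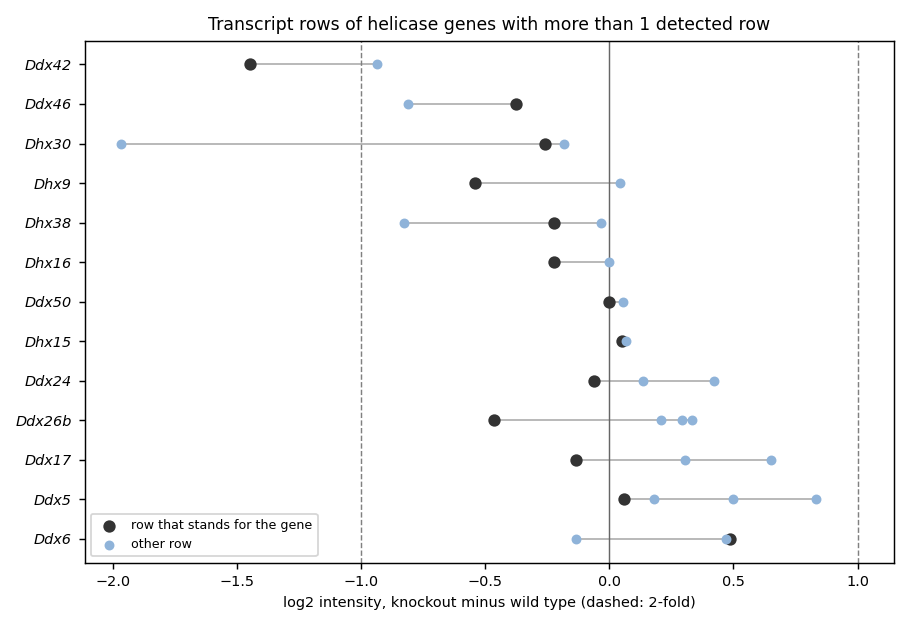
Difference in log2 intensity, knockout minus wild type (horizontal axis), for each of 35 detected transcript rows of the 13 helicase genes with more than 1 such row, with a dark circle for the row that stands for the gene and a light circle for each other row. Both rows of Ddx42 lie below -0.9 and all 4 rows of Ddx5 lie above 0. The 3 rows of Dhx30, all below the knockout floor, are shown through their wild-type values alone, which fixes their sign and leaves their size unmeasured.

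Genes around the family were described from lists of related helicases and of helicase cofactors. Of 20 other RNA and DNA helicases of the same and a related superfamily, 15 were above both floors, and of these 2 were past 2-fold higher in the knockout (5.37% of all genes above both floors) and 0 past 2-fold lower (4.19%). Mov10, Supv3l1 and Helz2 were above the knockout floor alone. The detected rows of Mov10 differed by 0.92 to 1.99, those of Helz2 by 0.31 to 2.04 and the 1 row of Supv3l1 by 0.39. Whether the other rows of Mov10 and Helz2 passed the wild-type floor is not given here. Ascc3, a helicase that resolves stalled ribosomes and serves alkylation repair, read 12.53 in the knockout and 9.77 in the wild type, 6.80-fold higher in the knockout, and its other row differed by 1.39. Znfx1, described as an antiviral RNA helicase, read 12.94 in the knockout and 10.56 in the wild type, 5.19-fold higher in the knockout. The median of the 15 above both floors was -0.17, and that of the 19 above either floor was -0.10.

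The helicases of that list that work beside the members in splicing and translation were nearer to level than Ascc3 and Znfx1. Snrnp200, the helicase that unwinds U4 from U6 RNA in the spliceosome, read 11.40 in the knockout and 12.05 in the wild type, 1.57-fold lower in the knockout. Aqr, which binds the intron, differed by -0.26, with rows from -0.41 to 0.39. Eif4a1 and Eif4a2, the helicases of translation initiation, differed by -0.22 and -0.09, and Eif4a3 of the exon junction complex by -0.17. Their rows reached up to 0.12, 0.38 and 0.04, so the sign of each turned with the row.

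Cofactors that switch these helicases on or hold them back were, by median, lower in the knockout. Of 28 on the list 27 were measured and 24 were above both floors. Of these 24, 3 passed 2-fold lower in the knockout (4.19% of all genes above both floors) and 0 passed 2-fold higher (5.37%). A negative difference was found for 19 (53.6% of all genes above both floors), and the median was -0.28, against -0.04 over all. Gpatch4, a nucleolar G-patch protein, read 12.37 in the knockout and 14.33 in the wild type, 3.90-fold lower in the knockout, with rows from -1.96 to -0.43. Pdcd4, an inhibitor of the helicase Eif4a, read 11.43 in the knockout and 13.14 in the wild type, 3.27-fold lower in the knockout, and its other row differed by -0.41. Eif4g1, the scaffold that stimulates Eif4a, was 2.28-fold lower from its brightest row, at 12.76 in the knockout and 13.95 in the wild type, but its 5 rows reached from -1.19 to 0.45.

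Few of the helicase cofactors were higher in the knockout. Tfip11 and Cmtr1, G-patch proteins that bind Dhx15, differed by 0.44 and 0.45, and Cwf19l2 by 0.93, although its other row differed by 0.16. Gle1, which activates Ddx19 proteins at the nuclear pore, differed by -0.43, and Nup214, the pore protein that Ddx19 proteins dock on, by -0.05. Magoh and Rbm8a, which lock Eif4a3 onto mRNA, differed by -0.36 and -0.01.

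**Figure D4:**
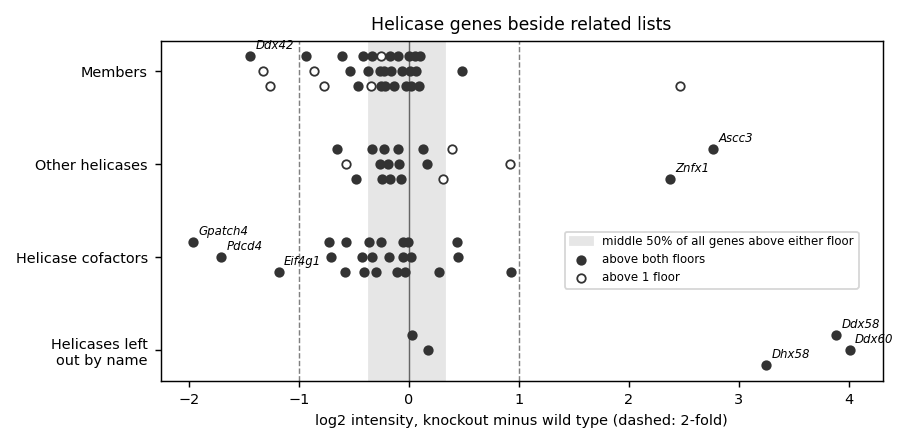
Difference in log2 intensity, knockout minus wild type (horizontal axis), for the helicase genes above either floor, for detected genes of the lists of other helicases and of cofactors, and for the 5 helicase genes left out by name, with filled circles above both floors and open circles above 1 floor. Genes above both floors and past 2-fold are named: Ddx42 among the members, Ascc3 and Znfx1 higher and Gpatch4, Pdcd4 and Eif4g1 lower in the related lists, and Ddx58, Ddx60 and Dhx58 higher among those left out.

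The helicase genes left out by name fell into 2 sets. Ddx58, Dhx58 and Ddx60, known as interferon-induced genes of antiviral RNA sensing, differed by 3.89, 3.25 and 4.01, while Ddx41 and Ddx3y differed by 0.03 and 0.17. None of the 26 members above both floors came near the first 3 values, since the highest was 0.48. These 3 genes fit the name pattern and were left out with earlier results of these data known. The gap therefore depends on that choice and is not a result about the members.

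The promoter sequences are shown to set a member beside an interferon-induced helicase. RefSeq windows of 250 bases before to 50 after the start of a gene (build GRCm38.p6) existed for 41 of the 47 genes. They were searched on both strands for GAAA followed by 2 bases of any kind and GAAA again, the core of the interferon-stimulated response element. These letters were found in 1 of the 41, or 2.44%, against 4.2% of genes above either floor and 3.99% of all genes with a window. That member was Ddx49, whose difference was -0.26. Of 4 genes left out by name that have a window, Ddx58 and Ddx60 held the letters.

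A second search was for CCGGAAG, the core of sites of ETS transcription factors, and was chosen after values of the members had been seen. It was found in 17 of the 41, or 41.5%, against 19.5% of genes above either floor and 9.93% of all genes with a window. The E-box CACGTG was found in 7 of the 41, or 17.1%, against 11.3% of genes above either floor. Such matches are descriptions of letters and do not show that a factor binds. The 250 bases before the start are given 5′ to 3′ along the gene, with every match in capitals, for Ddx42 (chr11:106216676-106216925 on the plus strand), Dhx9 (chr1:153487661-153487910 on the minus strand), Ddx49 (chr8:70302472-70302721 on the minus strand) and Ddx60 (chr8:61927837-61928086 on the plus strand). Ddx42 is the member past 2-fold, Dhx9 a member with the ETS letters, Ddx49 the member with the interferon letters, which also has the ETS letters, and Ddx60 the gene left out that was 16.1-fold higher in the knockout.
Ddx42: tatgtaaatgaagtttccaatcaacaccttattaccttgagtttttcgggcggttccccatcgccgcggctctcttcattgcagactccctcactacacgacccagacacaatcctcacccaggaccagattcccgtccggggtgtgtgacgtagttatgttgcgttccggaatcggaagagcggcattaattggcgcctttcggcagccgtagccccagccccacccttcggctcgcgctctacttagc
Dhx9: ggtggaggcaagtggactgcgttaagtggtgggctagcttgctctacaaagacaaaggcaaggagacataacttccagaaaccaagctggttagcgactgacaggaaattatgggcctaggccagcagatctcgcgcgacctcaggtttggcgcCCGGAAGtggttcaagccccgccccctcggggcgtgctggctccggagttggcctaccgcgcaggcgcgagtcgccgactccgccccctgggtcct
Ddx49: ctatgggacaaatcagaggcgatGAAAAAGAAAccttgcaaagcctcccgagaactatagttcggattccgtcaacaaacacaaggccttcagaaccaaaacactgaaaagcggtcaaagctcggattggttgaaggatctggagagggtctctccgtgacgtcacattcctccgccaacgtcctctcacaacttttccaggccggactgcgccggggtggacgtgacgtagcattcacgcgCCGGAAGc
Ddx60: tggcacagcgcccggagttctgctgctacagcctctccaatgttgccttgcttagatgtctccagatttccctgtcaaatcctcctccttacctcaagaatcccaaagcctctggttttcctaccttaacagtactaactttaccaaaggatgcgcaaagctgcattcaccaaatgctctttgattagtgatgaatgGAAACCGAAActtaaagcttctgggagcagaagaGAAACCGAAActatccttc
In these stretches Ddx60 holds 2 matches of the interferon letters close to the start, Ddx49 holds 1 far from it and 1 match of the ETS letters beside the start, Dhx9 holds 1 match of the ETS letters and Ddx42 holds 0 matches. A second listed start of Ddx42 has the E-box letters in its window.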

How the data were processed

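RNA of LT-HSCs from knockout and WT mice was hybridised to 1 array each. Per the labels' protocols, cDNA was primed with oligo dT and labelled with Cy3. The authors deposited linear intensities, which the submitters' processing notes credit to RMA with no version. RMA equalises the distributions of arrays, so differences are relative to other genes. The sources used here do not state which arrays were normalized together. Gene names and MM9 positions are those of the deposited files.

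Intensities were put on the log2 scale in Python 3.11.15 with pandas 2.3.3 and not normalized again. Of 44170 rows, 41886 had a gene ID, giving 24203 genes. The precision is limited by the number of arrays. The members, the names left out, the lists and the alternatives were chosen with earlier results of these data known. Genes were named by rule: those past 2-fold, the 8 most positive and 8 most negative above both floors, those whose detected rows differ by over 1, anchors, and the genes beside the threshold; others were named to account for every member. Calculations were tested on simulated data. Protein sequences were not used here.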

Additional observations from a re-analysis of the deposited data

How the results depend on the processing

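With no replicates, no array could be left out, and no paired analysis was possible because each group has 1 array. The count of 0 members at least 2-fold higher became 1 of 47 with no floor, which was Ddx4 (all genes, 5.83%). The count of 1 member at least 2-fold lower became 3 of 36 with each array's median row as the floor (Ddx23, Ddx27 and Ddx42), against 4.13% of all genes. With no floor it became 4 of 47 (these and Ddx31), against 5.93% of all genes. It was 0 with the row of the median difference (all genes, 3.06%). At a fold of 1.5 it was 3 (where 12.5% of all genes above both floors were lower) and at a fold of 3 it was 0 (all genes, 0.779%). The count stayed at 1 with the floor at the 99th percentile (all genes, 4.3%), all rows averaged (2.81%), loess centring with span 0.3 (3.68%) and the series-wide table (4.19%). It also stayed at 1 with the row of the highest linear mean (all genes, 4.32%), Ddx39b added or Ddx26b left out, 3 alternatives chosen after seeing the data.

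The median of all members ran from -0.24 to -0.13 over 12 alternatives and that of the splicing helicases from -0.48 to -0.34 over 9. Those 9 did not include the splicing helicases above both floors taken alone, whose median of -0.30 lies outside that range. The medians of ribosome biogenesis (-0.05 to 0.09), mRNA export, translation and decay (-0.16 to 0.08), transcription and genome (-0.26 to 0.09) and other superfamily helicases (-0.21 to 0.04) had both signs, while those of mitochondrial and other members (-0.36 to -0.18) and of cofactors (-0.35 to -0.17) did not. Among named genes, Dhx30 took another row with the highest linear mean, also below the knockout floor and so without a measured difference, Ddx42 was -0.94 with the row of the median difference, and averaging the rows gave 0.09 for Ddx26b, -0.10 for Dhx9 and 0.27 for Ddx17. The causes were not tested. Signal near the floor limits the 6 members above the wild-type floor alone and Ddx4.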

Other observations

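Values were also set out by name, DDX against DHX, with no test. Over all genes above either floor the median was -0.02 and 51.6% of the differences were negative, and over those above both floors the median was -0.04. Of 33 DDX genes, 24 were above either floor with a median difference of -0.22 and 17 negative differences. These include 5 genes above the wild-type floor alone, whose negative sign is fixed by how they were detected. The 18 DDX genes above both floors had a median of -0.15. Of 14 DHX genes, 9 were above either floor with a median of -0.22 and 7 negative differences, 1 of them from a gene above the wild-type floor alone. The 8 DHX genes above both floors had a median of -0.22.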
